A study of Mus musculus with 8 samples.

Results

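The mouse chemokine and interleukin genes were followed in fully grown germinal vesicle (GV) stage oocytes that lack Cnot7 and Cnot8. The members were all rows of the deposited count table whose symbol is Cxcl or Ccl with a number, or Il with a number and at most a letter from a to f, which gave 73 of 46078 genes. Of these 73 genes, 57 had at least 1 count in the 8 libraries and 16 had none. More than 3 counts in at least 1 library were found for 37 genes, and more than 3 counts in every library for 15. The filter of the study asks for a level of 0.2 CPM (counts scaled to a library total of 1e+06) or above in 2 or more libraries. It was passed by 33 of the 73 members (45.2%), and only these were tested.

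The control group was 4 libraries of oocytes from Zp3-Cre mice, and the CNOT7&8 KO group was 4 libraries of oocytes from mice in which Cre removed floxed Cnot7 and Cnot8. Per the study's methods, females were of C57BL/6J background and 4 weeks old, oocytes were taken 48 h after PMSG, the gonadotropin that drives follicle growth, and they were stripped of cumulus cells and kept in dibutyryl-cAMP, which holds them at the GV stage. Each library was made from 100 oocytes. The Zp3 promoter drives Cre in growing oocytes, so both groups carry Cre, and the somatic cells of the follicle keep both genes. Nothing in the labels says whether the libraries came from separate animals, so the p-values measure the spread between these libraries, which may be partly technical. In libraries from pools of oocytes, fewer cells of a type and less RNA per cell cannot be told apart.

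Chemokines are small secreted proteins that attract leukocytes through receptors of the G protein-coupled kind. They are grouped as CC or CXC by the spacing of their first cysteines. Interleukins are secreted signals between leukocytes and tissue cells, and each family acts through its own set of receptor chains. Many chemokine and interleukin mRNAs are short-lived because their 3′UTRs hold AU-rich elements with the core AUUUA. Proteins that bind these elements recruit the CCR4-NOT complex, whose deadenylase subunits Cnot7 and Cnot8 shorten the poly(A) tail. In the ovary, chemokines and interleukins are mostly known as products of granulosa cells and leukocytes around ovulation.

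The counts per library ranged from 14943671 to 44092144 in the control and from 8639444 to 26784110 in the KO. A signal of 3 counts was therefore worth 0.068 to 0.201 CPM in the control group and 0.112 to 0.347 CPM in the KO group, which covers counting error only. The targeted genes were as labelled for Cnot8, at 168 ± 20.003 normalized CPM in the control and 35.2 ± 1.40 in the KO (mean ± SD, n = 4), with no overlap. Cnot7 stood at 933 ± 77.3 and 719 ± 70.8 normalized CPM, so that 77.1% of the control level of reads on that gene remained. Counts per gene do not tell which exons the remaining reads cover. The paper's immunoblot showed both proteins to be absent from KO oocytes. The 16 oocyte markers summed to between 27367 and 29854 normalized CPM in the control and between 20702 and 24404 in the KO, and among them Sohlh1 was higher in KO (0.178 and 0.587 normalized CPM) and Mos was lower (624 and 257), both past the thresholds used for all genes. Sohlh1 passed the filter only because of the KO libraries. Normalized CPM here are CPM relative to the library size after scaling by the TMM method, and levels in single libraries are given in the order of the replicate numbers.

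The annotated 3′UTRs of the members were searched on the transcript strand for the AUUUA pentamer, written ATTTA in the genome sequence, because this element marks the class of short-lived cytokine mRNAs. Among tested genes with an annotated 3′UTR, 24 of 33 members (72.7%) and 70.3% of all 15185 genes held it, so these shares were close. Of all 66 members with a 3′UTR, tested or not, 53 held it (80.3%), against 66.6% of 20841 annotated genes. The tested members had 3.33 copies per kb and all tested genes 1.75 per kb, and the median 3′UTR was 621 bases in the former and 1272 bases in the latter. Among 3′UTRs of 200 to 700 bases, 24 of 30 members (80%) held the pentamer, against 43.0% of 5249 genes of that length. Overlapping copies were counted separately. The pentamer was in 4.45% of all windows of 30 bases in annotated 3′UTRs, and 4 or more copies were in 0.0064% of them. The following windows were each chosen around copies of the pentamer, from members that rose, from members that fell, and from a pair of members that were hardly counted, Cxcl1 and Il2, which were chosen after their values were seen. They are given 5′ to 3′ on the transcript strand from GENCODE vM21 transcripts (GRCm38), with ATTTA in capitals.
Il24, rose, chr1:130882232-130882261, minus strand: agtagatttgcatATTTAttacagccctat
Il19, rose, chr1:130932819-130932848, minus strand: tggctgctgtggtATTTAtagcaatatgtg
Il10, rose, chr1:131024384-131024413, plus strand: ctctctccgaaatATTTAttacctctgata
Il3, rose, chr11:54265303-54265332, minus strand: atgccatcaaatgtcttatcaATTTAtcta
Ccl2, rose, chr11:82037205-82037234, plus strand: taatattaaacttATTTAacttattgatgt
Ccl3, rose, chr11:83648075-83648104, minus strand: ttgaaattttATTTAATTTAatcctattgg
Cxcl3, rose, chr5:90787636-90787665, plus strand: gcatcttATTTAatgtttATTTAatatcaa
Il17f, fell, chr1:20777243-20777272, minus strand: taaactattatatATTTAtgttggtagggg
Ccl6, fell, chr11:83588723-83588752, minus strand: ttatagatATTTAaagcATTTAtccttctg
Il12b, fell, chr11:44413473-44413502, plus strand: ATTTAagtaATTTAtgtATTTAttaATTTA
Cxcl1, hardly counted, chr5:90892606-90892635, plus strand: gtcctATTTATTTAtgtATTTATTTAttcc
Il2, hardly counted, chr3:37121039-37121068, minus strand: tATTTATTTAaatATTTAactttaATTTAt

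Genes are said here to have risen or fallen in KO if they passed the thresholds of the test over all genes, which 8 members did upward, as did 23.8% of all tested genes, and 5 members downward, as did 6.56%. The pentamer was in the 3′UTR of 7 of the 8 members that rose, of 3 of the 5 that fell and of 14 of the 20 tested members that were in neither group. Over all genes, 73.9% of those that rose and 54.3% of those that fell held it, so for at least 1 copy the members' split ran the same way. For 3 or more copies it ran the other way. These were in 50% of the members that rose and 60% of those that fell, against 43.2% and 24.4% over all genes. The median 3′UTR of all genes that rose was 1383 bases, and of those that fell 860 bases. It was also in 29 of the 33 members (87.9%) under the filter that have an annotated 3′UTR. The windows with 4 copies belong to Il12b, which fell from a low level, and to Cxcl1 and Il2, with 9 and 2 counts over all libraries. Cxcl17, which rose, and Il17c and Il17b, which fell, had no ATTTA in the 3′UTR used. A match of these letters is a description of the sequence and no measure of RNA stability.

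Detection differed between the families. Among the 27 CC chemokines, 11 had no count, among them Ccl5, Ccl8, Ccl9 and Ccl12, which attract monocytes, T cells and eosinophils in inflamed tissue, and Ccl21a, Ccl21b and Ccl21c, which guide cells to lymph nodes. All 13 CXC chemokines had at least 1 count, but 7 of them stayed under the filter. These included Cxcl12, the stem cell attractant, with 3 counts in all, and Cxcl9, Cxcl10 and Cxcl11, which interferon induces and which had 1 to 4 counts summed over the KO libraries and none in the control. Each of the 5 IL-10 family genes (Il10, Il19, Il20, Il22 and Il24) passed the filter. Il1b, Il17a, Il21, Il25 and Il27 had no count, Il6 had 3 counts in all, and Il1a, Il16 and Il12a had 1 count each. The CC rows without a count include a further row of the symbol Ccl27a and Ccl21c, both absent from GENCODE vM21, and the pseudogene Ccl19-ps3. Another pseudogene row, Ccl19-ps1, was counted but under the filter. Ccl27a and Ccl27b, and the Ccl21 and Ccl19 copies, have near-identical sequences, so that their counts are uncertain.

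**Figure D1:**
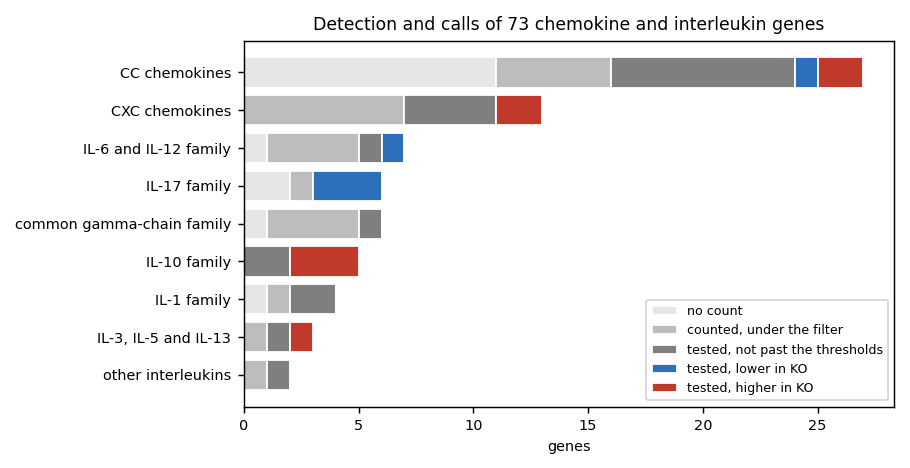
Number of genes (x axis) of each chemokine and interleukin family (y axis), split by shade into genes with no count, genes counted but under the filter, and tested genes that were not past the thresholds, lower in KO or higher in KO. The CC chemokines hold 11 of the 16 genes without a count, all 5 IL-10 family genes were tested, and all 3 tested IL-17 family genes were lower in KO.

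Of the 33 tested members, 8 were higher in KO (24.2%) and 5 were lower (15.2%) by edgeR's quasi-likelihood test, with an adjusted p (false discovery rate) no greater than 0.05 and a change of 2-fold or more. Over all 19241 genes tested, 23.8% were higher and 6.56% were lower at the same thresholds. The share of members that rose was thus near that of all genes, and the share that fell was above it. Cxcl17, Cxcl3, Il19, Il10 and Il3, which rose, did not reach 0.2 CPM in 2 control libraries. They passed the filter only because of the KO libraries, where they are high. Il12b, which fell, reached that level in no KO library and passed only through the control. The same filter was used for all genes. At the false discovery rate alone 10 members were higher, against 31.2% of all genes, and 6 were lower, against 24.1%. The median log2 fold change was 0.29 over the 33 members and 0.12 over all genes. The background depends on the level: below a mean of 1 CPM, where 16 members lie, 35.5% of all genes were higher and 3.26% lower, and 5 of the 16 members were higher and 2 lower. At 10 CPM or more, 9.65% of all genes were higher and 7.68% lower, and of 5 members there 2 were higher (Ccl2 and Il24) and 1 was lower (Il17f). With library size in place of TMM scaling, which raised the median log2 fold change of all genes by 0.29, the share of higher genes among those past the thresholds was 90.6% in place of 78.4%. The members then counted 9 higher, Il34 being added, and 2 lower. Without the deepest library of each group, control replicate 1 and KO replicate 4, an alternative added after seeing the data, 6 members were higher and 4 were lower.

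**Figure D2:**
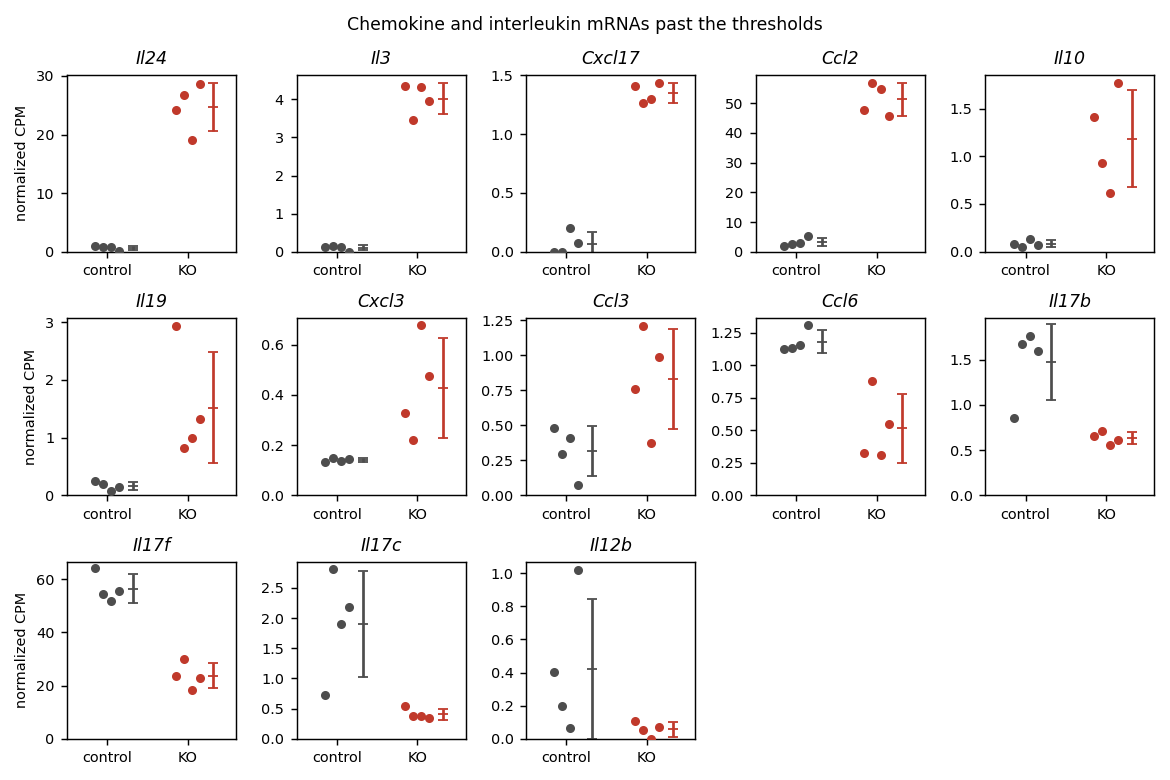
Normalized CPM (y axes, each from 0 with its own range) in every control (grey) and KO (red) library for the 13 members past the thresholds, with the group mean and SD beside the points, the lower end of the SD bar being cut at 0. The groups are apart in every panel except Ccl3 and Il12b, and Ccl2 and Il24 reach the highest KO levels of those that rose.

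The largest level among the members that rose was that of Ccl2, a CC chemokine that attracts monocytes through the receptor Ccr2. Ccl2 (chr11:82035571-82037453, plus strand) stood at 1.98, 2.57, 2.99 and 5.17 normalized CPM in the control libraries and at 47.7, 56.9, 54.9 and 45.6 in the KO libraries. Every KO library was above every control library, and the KO mean of 51.3 ± 5.49 was 16.1-fold the control mean of 3.18 ± 1.39 (SD, n = 4). The log2 fold change was 4.06 with a standard error of 0.26 (edgeR quasi-likelihood test, adjusted p = 2.5e-07). Ccl2 took 0.709% to 1.95% of the summed normalized CPM of all members in the control and 15.7% to 17.8% in the KO. None of its neighbours on chromosome 11 was past the thresholds. Ccl7, the next gene, had 2 counts in all, Ccl12 and Ccl8 had none, Ccl11, the eosinophil attractant eotaxin, was at 1.34 ± 0.222 and 1.66 ± 0.357 normalized CPM (adjusted p = 0.355), and Ccl1 was at 0.405 ± 0.234 and 0.215 ± 0.147 (adjusted p = 0.152, both by edgeR's quasi-likelihood test).

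Among the other CC chemokines, Ccl3, which attracts macrophages, rose and Ccl6, an attractant of myeloid cells, fell, both at low levels. Ccl3 stood at 0.481, 0.296, 0.408 and 0.0728 normalized CPM in the control and at 0.76, 1.21, 0.37 and 0.988 in the KO. The groups overlapped in KO replicate 3, and the exact two-sided permutation test over 70 assignments gave p = 0.0857. The log2 fold change of Ccl3 was 1.32 ± 0.51 (SE; edgeR quasi-likelihood adjusted p = 0.0442), and it was no longer past the thresholds without any one of 6 libraries or with the replicate block. Ccl6 stood at 1.12, 1.13, 1.16 and 1.31 normalized CPM in the control and at 0.326, 0.879, 0.308 and 0.545 in the KO. All KO libraries were below all control libraries, with a log2 fold change of -1.13 ± 0.38 (edgeR quasi-likelihood adjusted p = 0.022), which came to -0.85 with library size only, to -0.99 without KO replicate 1 and to -0.92 without KO replicate 3, all short of the thresholds. Ccl6 lies within E230016K23Rik on the opposite strand, which was at 11.8 and 7.66 normalized CPM.

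Ccl27a, Ccl28 and Ccl25, epithelial and thymic chemokines that draw lymphocytes to skin, mucosa and thymus, were not past the thresholds. Ccl27a stood at 4.06, 8.88, 9.05 and 7.50 normalized CPM in the control and at 4.67, 4.72, 5.98 and 3.13 in the KO. Ccl28 was at 5.67, 6.56, 4.42 and 6.19 in the control and at 2.17, 3.62, 4.81 and 5.35 in the KO. Ccl25 was at 5.75, 4.14, 5.51 and 4.59 in the control and at 4.34, 5.22, 3.64 and 3.71 in the KO. The groups overlapped for all 3 genes, and the adjusted p of edgeR's quasi-likelihood test was 0.057, 0.125 and 0.319. The log2 fold change of Ccl25, -0.25, turned to 0.04 with library size only. Ccl25 shares 204 exon bases with Elavl1 on the opposite strand, which was at 33.3 and 31.1 normalized CPM, and Ccl27a shares 8 with Il11ra1, so reads there depend on a strand setting that is not given in the sources used here. Ccl4, Ccl17 and Ccl24 were tested at means below 0.5 CPM and were not past the thresholds.

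In the CXC family, Cxcl17, a chemokine of mucosal tissues, and Cxcl3, a neutrophil attractant, rose. Cxcl17 (chr7:25400053-25412886, minus strand) was at 0, 0, 0.204 and 0.0728 normalized CPM in the control and at 1.41, 1.26, 1.29 and 1.43 in the KO. No control library had more than 3 counts, and the KO mean of 1.35 ± 0.0833 was at least 8.30-fold higher than the mean level of 3 counts per control library (edgeR quasi-likelihood adjusted p = 0.000172). Cxcl3 went from 0.141 ± 0.00706 to 0.425 ± 0.199 normalized CPM without overlap (log2 fold change 1.58 ± 0.54 SE, edgeR quasi-likelihood adjusted p = 0.0257). It was short of the threshold with DESeq2, with the replicate block and without control replicate 1, KO replicate 3 or KO replicate 4. Its relatives in the chromosome 5 cluster, Cxcl5 and Cxcl15, were tested and not past the thresholds, and Cxcl1 and Cxcl2 had 9 and 3 counts in all.

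The highest CXC levels belonged to Cxcl14, a chemokine of skin and other epithelia, and Cxcl13, the attractant of B cells. Cxcl14 stood at 6.68, 5.97, 5.78 and 7.57 normalized CPM in the control and at 8.79, 8.13, 8.88 and 6.10 in the KO. Cxcl13 stood at 4.46, 3.70, 3.88 and 3.20 in the control and at 4.67, 5.93, 4.07 and 4.77 in the KO. The groups overlapped for both genes, with log2 fold changes of 0.29 ± 0.18 and 0.34 ± 0.20 (SE; edgeR quasi-likelihood adjusted p = 0.201 and 0.161).

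Of the 5 IL-10 family genes, 3 rose (60%) and none fell, against 23.8% and 6.56% of all genes tested. Il19 and Il10 passed the filter only because of the KO libraries. Below a mean of 1 CPM, where both lie, 35.5% of all genes rose. Il24, which signals through receptors that hold the Il20rb chain, stood at 1.04, 0.740, 0.748 and 0.146 normalized CPM in the control and at 24.2, 26.8, 19.1 and 28.6 in the KO. Every KO library lay above every control library, with means of 0.669 ± 0.376 and 24.7 ± 4.13 (SD, n = 4) and a log2 fold change of 5.07 ± 0.32 (SE; edgeR quasi-likelihood adjusted p = 2.76e-07). Il19, a relative that acts through the receptor of Il20ra and Il20rb, stood at 0.241, 0.197, 0.068 and 0.146 in the control and at 2.93, 0.824, 0.987 and 1.33 in the KO. The groups were apart, with KO replicate 1 the highest, and the log2 fold change was 2.99 ± 0.53 (SE; edgeR quasi-likelihood adjusted p = 0.000492). Il10, the anti-inflammatory cytokine that gives the family its name, was at 0.0802, 0.0493, 0.136 and 0.0728 normalized CPM in the control, at most 3 counts in any library, and at 1.41, 0.933, 0.617 and 1.77 in the KO. The KO mean of Il10 was at least 7.27-fold higher than the mean level of 3 counts per control library (edgeR quasi-likelihood adjusted p = 9.52e-05).

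These 3 genes lie with Il20 in 143 kb of chromosome 1 (chr1:130882074-131024974), in the order Il24, Il20, Il19 and Il10. Il20, between Il24 and Il19, stood at 10.1, 7.25, 9.05 and 7.28 normalized CPM in the control and at 9.34, 13.9, 9.87 and 13.2 in the KO. Its groups overlapped, and its log2 fold change of 0.46 ± 0.19 (SE) was not past the thresholds (edgeR quasi-likelihood adjusted p = 0.0563). Per kb of exon, Il20 was the highest of the 4 genes in the control, at 7.11 normalized CPM per kb, and Il24 in the KO, at 17.8. Fcmr, on the other side of Il24, was at 0.15 and 0.234 normalized CPM (adjusted p = 0.504), and Mapkapk2, beyond Il10, was at 4.60 and 8.16, below the 2-fold threshold (log2 fold change 0.81, edgeR quasi-likelihood adjusted p = 0.00297). Il22, the family member on chromosome 10, was at 3.08 ± 0.151 and 3.75 ± 0.587 and not past the thresholds.

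**Figure D3:**
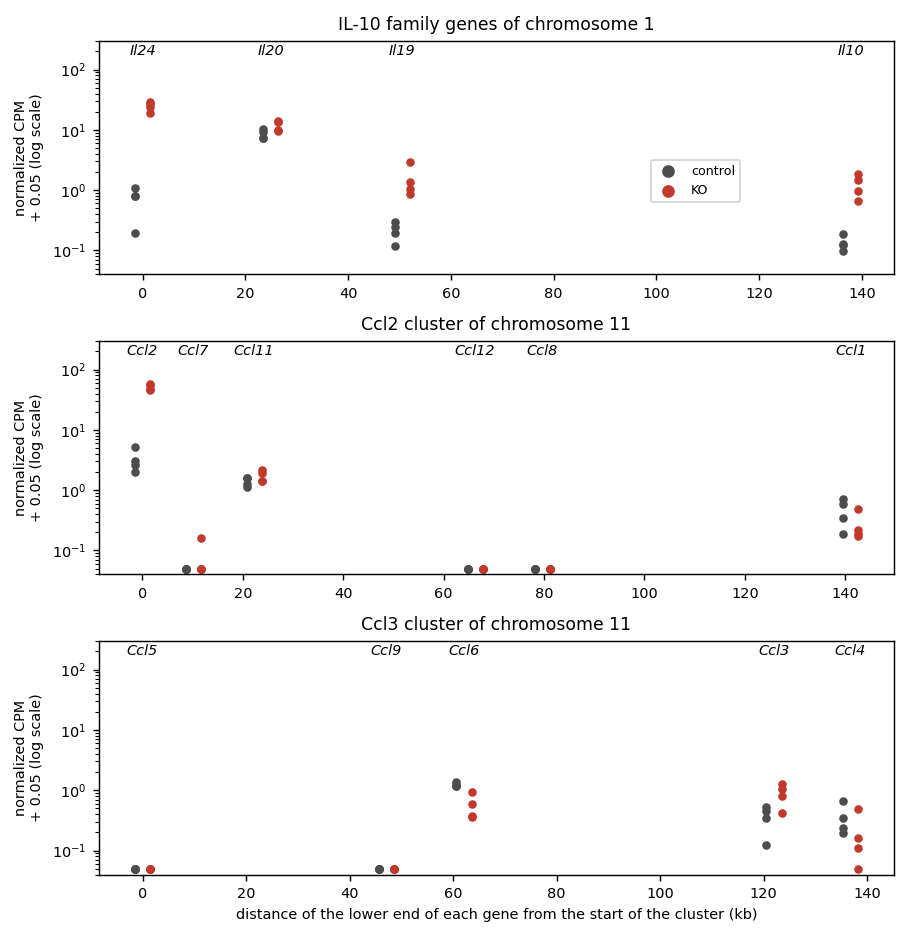
Normalized CPM plus 0.05 (y axes, log scale) in every control (grey) and KO (red) library for the genes of 3 clusters, placed by the distance in kb of the lower end of each gene from the start of its cluster (x axes). Il24, Il19 and Il10 are higher in every KO library while Il20 between them overlaps, and Ccl2 is higher in every KO library while Ccl7, Ccl12 and Ccl8 hold from 0 to 2 counts in all.

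Il3, a growth factor for blood cell precursors and mast cells that activated T cells make, rose from near the limit of detection. Il3 (chromosome 11) was at 0.134, 0.148, 0.136 and 0 normalized CPM in the control, from 0 to 5 counts, and at 4.34, 3.46, 4.32 and 3.95 in the KO. All KO libraries were above all control libraries, with a mean of 4.02 ± 0.413 against 0.104 ± 0.0699 (SD, n = 4) and a log2 fold change of 5.06 ± 0.39 (SE; edgeR quasi-likelihood adjusted p = 1.07e-06). Its relatives of the type 2 cytokine locus on the same chromosome stayed low: Il13 was at 0.421 ± 0.205 and 0.321 ± 0.19 and not past the thresholds, Il5 had 8 counts in all, and Il4 had 5.

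All 3 tested IL-17 family genes fell, as did 6.56% of all genes tested. Il17f, a cytokine known from T cells that acts on epithelia through Il17ra and Il17rc, was the highest member per kb of exon in the control. Il17f (chr1:20777146-20790617, minus strand) stood at 64.3, 54.4, 51.8 and 55.6 normalized CPM in the control and at 23.8, 29.8, 18.4 and 23.0 in the KO. The groups were apart, with means of 56.5 ± 5.45 and 23.7 ± 4.70 (SD, n = 4) and a log2 fold change of -1.25 ± 0.15 (SE; edgeR quasi-likelihood adjusted p = 3.34e-05). Il17c, which epithelial cells make and which acts on them through Il17re, stood at 0.722, 2.81, 1.90 and 2.18 in the control and at 0.543, 0.384, 0.370 and 0.341 in the KO. Its log2 fold change was -2.23 ± 0.45 (SE; edgeR quasi-likelihood adjusted p = 0.00123), with control replicate 1 nearest to the KO. Il17b, a further relative (chromosome 18), stood at 0.855, 1.68, 1.77 and 1.6 in the control and at 0.651, 0.714, 0.555 and 0.613 in the KO, without overlap (log2 fold change -1.19 ± 0.34 SE, edgeR quasi-likelihood adjusted p = 0.0104). With library size only, Il17f and Il17b stayed lower in KO but were short of the 2-fold threshold, at -0.97 and -0.92. Il17a, the neighbour of Il17f and its partner in the IL-17 heterodimer, had no count, and Il17d had 12 in all.

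In the IL-6 and IL-12 family, Il12b, the subunit shared by the cytokines IL-12 and IL-23, fell, and Il23a, the subunit specific to IL-23, was not past the thresholds. Il12b went from 0.421 ± 0.422 to 0.0579 ± 0.0448 normalized CPM, at least 2.17-fold lower when the KO is set at 3 counts per library (edgeR quasi-likelihood adjusted p = 0.0217). The groups overlapped, the exact two-sided permutation test gave p = 0.0857, and the control level rested mainly on control replicate 4, at 1.02. Without control replicate 1 or control replicate 4, Il12b did not pass the filter, and without KO replicate 2 or KO replicate 3 it was short of the threshold. Il23a stood at 3.31, 5.33, 3.27 and 3.28 in the control and at 4.99, 5.49, 5.43 and 6.10 in the KO. Control replicate 2 lay within the KO range, and the log2 fold change was 0.54 ± 0.21 (SE; edgeR quasi-likelihood adjusted p = 0.048). Il11, Il31, Il6, Il12a and Il27 had from 0 to 17 counts over all libraries.

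Il7, the growth factor of developing lymphocytes, and Il34, a ligand of the macrophage receptor Csf1r, were among the 3 highest members per kb of exon in the control and changed by less than 2-fold. Il7 stood at 133, 110, 123 and 110 normalized CPM in the control and at 79.9, 85.9, 81.6 and 86.7 in the KO. Every KO library was below every control library, with a log2 fold change of -0.51 ± 0.11 (SE; edgeR quasi-likelihood adjusted p = 0.00156). Il34 stood at 26.6, 41.5, 32.2 and 40.4 in the control and at 60.0, 61.9, 73.2 and 44.1 in the KO. Every KO library was above every control library, with a log2 fold change of 0.77 ± 0.18 (SE; edgeR quasi-likelihood adjusted p = 0.0034), which reached 1.05 with library size only. Il7 took from 41.3% to 47.7% of the summed normalized CPM of all members in the control and from 26.4% to 29.8% in the KO. The IL-1 family members Il33 and Il18, both alarm signals of damaged or infected epithelia, were below 1 CPM and not past the thresholds.

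**Figure D4:**
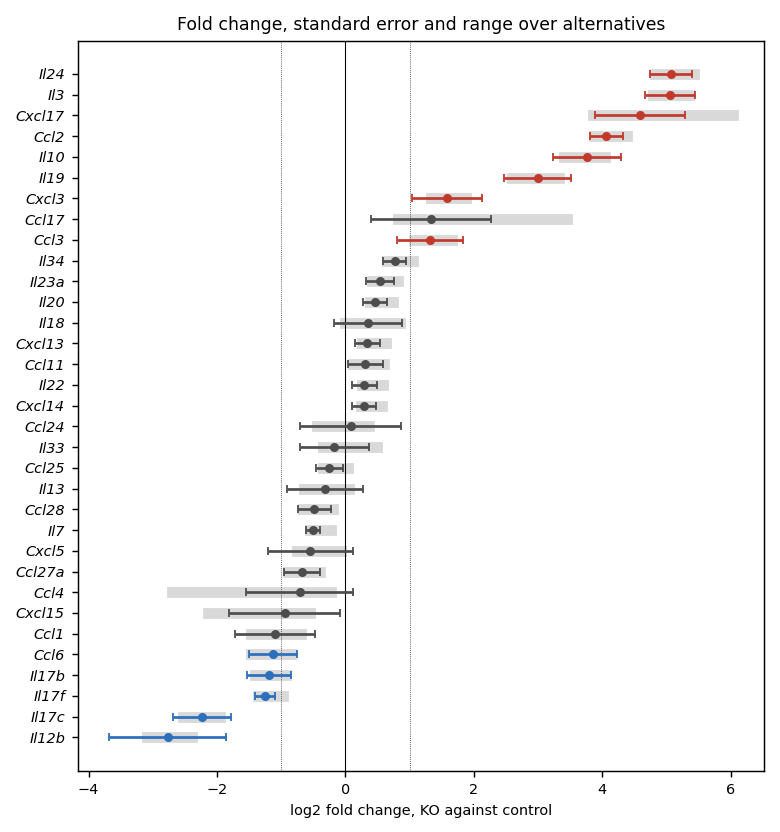
Log2 fold change of KO against control (x axis) of the 33 tested members (y axis, ordered by fold change), as points with the standard error of edgeR's quasi-likelihood test, over grey bars that run from the lowest to the highest value under 19 alternatives; red points rose, blue points fell, dark points were not past the thresholds, and dotted lines mark a 2-fold change. The top 6 (Il24, Il3, Cxcl17, Ccl2, Il10 and Il19) stay beyond it under the alternatives that gave them a value, whereas the bar of Il17f ends at -0.97.

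The order of levels changed between the groups. Per kb of exon, the control order was Il17f at 27.9 normalized CPM per kb, Il7 at 21.0, Il34 at 18.0, Il20 at 7.11, Cxcl14 at 3.56, Cxcl13 at 3.31, Ccl27a at 3.10 and Ccl2 at 2.79. In the KO it was Ccl2 at 45.1, Il34 at 30.5, Il24 at 17.8, Il7 at 14.7, Il17f at 11.7, Il20 at 9.75 and Il3 at 6.39. Ccl2 moved from rank 8 to rank 1 and Il17f from rank 1 to rank 5. The summed normalized CPM of all members lay between 265 and 279 in the control and between 291 and 326 in the KO, so the totals did not overlap.

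**Figure D5:**
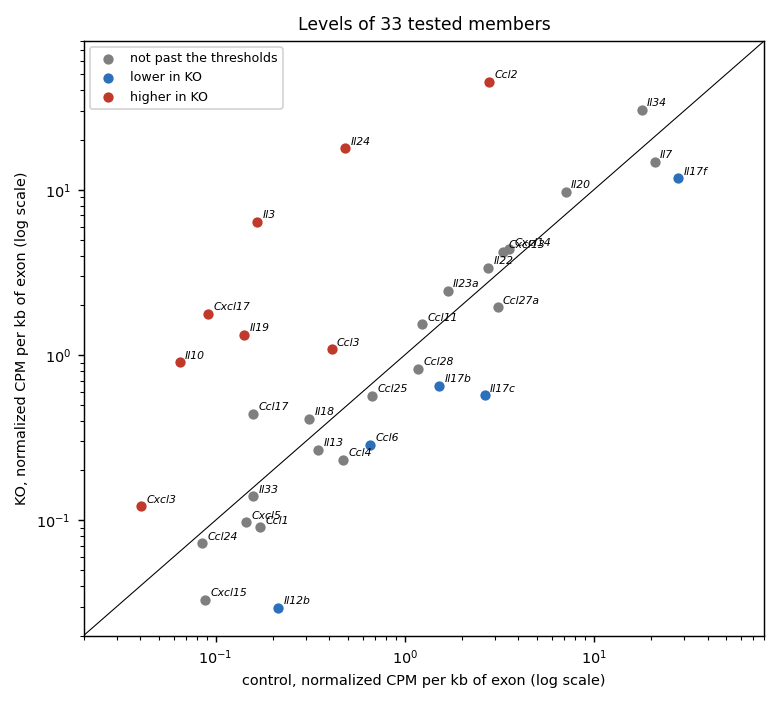
Mean normalized CPM per kb of exon of the 33 tested members in control (x axis, log scale) and KO (y axis, log scale), 1 point per gene, with the line of equal levels. Red points are higher in KO and blue points lower in KO past the thresholds, and Ccl2, at 2.79 in the control and 45.1 in the KO, is the highest point.

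Every KO library was above every control library in 8 of the 33 tested members (24.2%), against 27.0% of all genes tested. Every KO library was below every control library in 5 members (15.2%), against 21.4%. The first were the members that rose other than Ccl3, together with Il34, and the latter were Il17f, Il17c, Il17b, Ccl6 and Il7.

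Of 11 tested chemokine receptors out of 24, 5 rose (45.5%) and none fell, against 23.8% and 6.56% of all genes. By mean CPM, the 4 highest of those that rose were Cxcr4, the receptor of Cxcl12, from 3.06 ± 0.66 to 15.9 ± 2.52 normalized CPM (log2 fold change 2.36), Ccr2, the receptor of Ccl2, from 0.0305 to 0.288, Cxcr5, the receptor of Cxcl13, from 0.0247 to 0.276, and Cx3cr1, from no count in the control to 0.275. Ccr2 had at most 1 count in a control library and from 3 to 9 in a KO library. Apart from Cxcr4, those that rose had KO means of 0.288 or less, and below a mean of 1 CPM 35.5% of all genes rose. Ccr2, Cxcr5, Cx3cr1 and Ackr2 did not reach 0.2 CPM in 2 control libraries. They passed the filter only because of the KO libraries, where they are high. Cxcr3, the highest receptor of the list in the control at 26.6 normalized CPM, Ccr3 and Ackr3 were lower in every KO library. Their log2 fold changes of -0.82, -0.83 and -0.55 were short of the 2-fold threshold (edgeR quasi-likelihood adjusted p = 0.000617, 0.00652 and 0.0317). The summed levels of the list overlapped between the groups. Of 35 tested interleukin receptor genes out of 45, 10 rose (28.6%) and 2 fell (5.71%), shares close to those of all genes. Among those that rose, Il13ra1, Il17re, Il20ra, Il20rb and Il21r passed the filter only because of the KO libraries. Il1r1, the signalling receptor of IL-1, had the highest CPM of those that rose, from 83.2 ± 16.3 to 450 ± 66.3 normalized CPM (log2 fold change 2.43 ± 0.16 SE, edgeR quasi-likelihood adjusted p = 2.74e-07), while its ligands Il1a and Il1b had 1 count and none. Il6ra rose from 0.677 to 5.56, Il13ra2 from 1.27 to 4.42 and Il11ra1 from 1.07 to 3.09. Il6st, the signal chain shared by the IL-6 family, fell from 178 ± 33.2 to 85.9 ± 10.8, and Il2rb fell from 29.0 ± 2.04 to 9.52 ± 0.607.

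The receptors of the members that rose or ranked highest were looked up after their values were seen. Il20ra, a chain of the Il24, Il19 and Il20 receptor, rose from 0.0123 to 0.441 normalized CPM, with at most 1 count in a control library. Il20rb, its partner chain, rose from 0.02 to 0.279, with overlapping groups. Both Il20ra and Il20rb passed the filter only because of the KO libraries. Il10ra had 7 counts in all and was not tested. Il3ra was at 0.133 and 0.131, Csf1r at 0.328 and 0.15, and Il7r at 0.0372 and 0.187, none past the thresholds. Il17ra was at 35.0 ± 2.97 and 47.0 ± 4.11 (log2 fold change 0.42).

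Other cytokines and chemokines were mostly low or without a count. Of 11 tested among 25 rows, 2 rose (18.2%) and none fell, against 23.8% and 6.56% of all genes. Tslp, the epithelial cytokine of the IL-7 type, rose from 0.90 ± 0.336 to 5.01 ± 0.714 normalized CPM, and Lif from no count to 0.135. Lif had from 1 to 6 counts in a KO library, and its KO mean was below the mean level of 3 counts per KO library, 0.194. Lif passed the filter only because of the KO libraries. Tnf, Csf2, Osm, Pf4 and Ppbp had no count in any library.

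Of 23 tested genes for factors that control the decay of short-lived cytokine mRNAs, 8 rose (34.8%) and none fell. Of all genes tested, 23.8% rose and 6.56% fell. The 4 highest were Rc3h2, a roquin protein that binds stem-loops in such mRNAs, from 7.82 ± 2.68 to 81.8 ± 22.8 normalized CPM (log2 fold change 3.37), Tnrc6a, a partner of Argonaute that recruits CCR4-NOT, from 23.3 ± 3.58 to 71.6 ± 8.58, Tob1, an adaptor that binds Cnot7 and Cnot8, from 9.47 ± 1.20 to 40.6 ± 3.89, and Arid5a, which stabilizes Il6 mRNA, from 10.7 to 29.9. Zfp36, which encodes tristetraprolin, the best known protein that binds AUUUA elements, was at 1.80 and 2.73 and not past the thresholds. Its relatives Zfp36l2 and Zfp36l1, named after their values were seen, were among those that rose. They started from 3.75 and 0.154 normalized CPM in the control, with log2 fold changes of 1.54 and 2.94. Zfp36l1 passed the filter only because of the KO libraries.

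The NF-kappaB pathway, which induces many chemokine and interleukin genes, had 7 genes that rose and 4 that fell among 22 tested. These shares were 31.8% and 18.2%, against 23.8% and 6.56% of all genes. Ikbkg, the regulatory subunit of the IkappaB kinase, rose from 3.78 ± 1.70 to 38.4 ± 5.44 normalized CPM (log2 fold change 3.32), and the adaptors Traf3, Traf6 and Traf2 rose from 12.6 to 37.5, from 1.88 to 10.2 and from 1.95 to 9.18. Nfkb1, which encodes a DNA-binding subunit, fell from 14.7 ± 2.04 to 5.19 ± 1.11, and the inhibitor-like genes Nfkbiz, Nfkbib and Nfkbie fell from 55.8 to 26, from 11 to 4.45 and from 9.91 to 3.15. The groups overlapped for Nfkbib. The inhibitor gene Nfkbia went the other way, from 21.4 ± 2.87 to 40.2 ± 8.17, with every KO library above every control library. Its log2 fold change of 0.91 was short of the 2-fold threshold (edgeR quasi-likelihood adjusted p = 0.000588).

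Since chemokines and interleukins are made by somatic and immune cells, markers of such cells were measured in the same libraries. Of 19 tested granulosa and cumulus cell markers, 8 rose (42.1%) and none fell, against 23.8% and 6.56% of all genes. The list summed to between 149 and 201 normalized CPM in the control and between 280 and 381 in the KO. The largest part of the KO sum was Nr5a2, which went from 56.6 to 122. Nr5a2, Kitl, Ptgs2 and Gja1 were the 4 highest that rose, Ptgs2 from 2.94 to 36.7. The groups overlapped for Gja1, with KO replicate 4 at 10.8 and control replicate 1 at 12.9. Inha, Fshr, Inhba and Hsd3b1, the others that rose, named after their values were seen, went from 6.86 to 25.9, from 1.29 to 3.87, from 2.49 to 5.50 and from 2.33 to 5.19, with overlapping groups for Inha and Inhba. Foxl2, not tested, had at most 1 count in any library, and Amh, at 0.765 and 0.34, and Cyp19a1, at 58.4 and 31.3, were not past the thresholds. Some markers differed widely between the KO libraries, where Inha was at 38.4, 34.1, 26.5 and 4.77. There Inhbb was at 19.8, 8.46, 18.1 and 2.18, and Tnfaip6 at 1.30, 8.02, 0.0617 and 0, neither past the thresholds. The part of the granulosa markers in the rise of Ccl2, Il24 and the other members was not tested.

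Of 7 tested myeloid markers, 2 rose, Cd68 from 1.20 to 3.24 and Ptprc, the pan-leukocyte marker, from 0.122 to 0.615 normalized CPM. That was 28.6% of them, against 23.8% of all genes, and none fell. Ptprc passed the filter only because of the KO libraries. The list summed to between 76.9 and 89.2 in the control and between 47.6 and 67.9 in the KO, mostly from Mrc1 and C1qb. S100a8 and S100a9 had no count, and Cd14, Tyrobp, Fcer1g and Aif1 had from 0 to 3 counts in any library. Among the lymphoid markers, Cd28 rose from no count to 0.178 and Ms4a1 fell from 124 to 49.3. The KO mean of Cd28 was below the mean level of 3 counts per KO library, 0.194. With no count in the control, Cd28 passed the filter only because of the KO libraries. That list summed to between 119 and 164 in the control and between 50.9 and 82.7 in the KO, Cd3e and Cd3d had at most 1 count in a library, and Cd3g, Cd2, Nkg7, Ncr1 and Gzma had none. Of 12 tested stromal, theca and endothelial markers, 1 rose, Vwf from 0.899 to 5.38, and 2 fell, Kdr from 4.19 to 0.759 and Col3a1 from 0.374 to 0.0615, in a list that summed to between 124 and 160 and between 98.3 and 114. The shares that rose and fell were 8.33% and 16.7%, against 23.8% and 6.56% of all genes. The part of these markers in the members' values was not tested.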

How the data were processed

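RNA of GV oocytes was measured in 4 Zp3-Cre control and 4 CNOT7&8 KO libraries, grouped by the deposited labels. Per the study's methods and the submitters' processing notes, the authors removed ribosomal RNA, sequenced the libraries as read pairs, aligned these to GRCm38 by STAR 2.6.1d within the nf-core/rnaseq workflow and used edgeR 3.11. The labels name a stranded total RNA kit, whereas the methods name a stranded mRNA kit. The authors deposited raw counts per gene, without normalization. The counting tool within that workflow, its annotation and its strand setting are not given in the sources used here.

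Statistics used edgeR 4.0.16 and DESeq2 1.42.0, with limma 3.58.1, under R 4.3.3. A gene was tested if 2 or more libraries reached 0.2 CPM. Libraries were scaled by TMM, edgeR's quasi-likelihood test was applied, and p-values were adjusted by Benjamini-Hochberg over all 19241 genes. A gene was taken as higher or lower if the adjusted p did not exceed 0.05 and the change reached 2-fold. Standard errors were the log2 fold change divided by the root of the test's F value. Single values were compared by the exact two-sided permutation test over 70 assignments, whose smallest p is 0.0286. A group with at most 3 counts in every library was taken as at the floor. On simulated data with 19241 genes and 200 genes changed 4-fold, the test recovered 189 with 7 false calls. The changed genes had a mean above 0.5 CPM, and as many were raised as lowered. Recovery below that level, or under a mostly upward change, was not tested. GENCODE vM21 (GRCm38) held 71 of the 73 members and 98.0% of all gene identifiers, and supplied coordinates and 3′UTRs. Annotation steps and plots used pandas 2.3.3 and matplotlib 3.10.9 under Python 3.11.15.

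The members and gene lists were chosen with earlier results of these data known. Values in every library are given for the 12 tested members with the highest mean CPM and for members past the thresholds with a mean of at least 0.5 CPM. Of each companion list, the 4 highest genes in each direction are named. Proteins were not analysed here. A lymphoid marker is not reported here. As alternatives, DESeq2, edgeR's exact test, other scalings, filters, thresholds and detection floors, the replicate number as a block, and leaving out libraries were tried. No pairing by replicate number was seen in deviations from the group means, where same-numbered libraries correlated at -0.07, -0.04, 0.11 and -0.12. The highest and lowest correlations of all pairs were 0.37 and -0.33. They were those of control replicate 1 with KO replicate 4 and with KO replicate 3. Batches shared between libraries were not tested.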

Additional observations from a re-analysis of the deposited data

Results flagged for a closer look

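In 40 groups of 4 libraries (the members whose values are given, in both groups), a library far from the other 3 was found in 2, and chance gives about 2. Il3 was at 0 normalized CPM in control replicate 4, where the other control libraries were at 0.134 to 0.148, a difference of a few counts. Il23a was at 5.33 normalized CPM in control replicate 2, where the other control libraries were at 3.27 to 3.31, and this value lies within the range of the KO libraries.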

How the results depend on the processing

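Ccl2, Il24, Il3, Cxcl17, Il10, Il19 and Il17c kept their direction and stayed past the thresholds under each alternative that gave them a value. With library size only and with TMM on genes of at least 10 CPM, 588 and 627 of all genes and 2 and 2 members were lower in KO, because both scalings moved the median log2 fold change of all genes up, by 0.29 and 0.25. The stricter filter (1 CPM or above in 4 libraries), which leaves fewer genes to test, gave 2882 genes and 4 members higher and 1 member lower. The false discovery rate alone gave 4631 genes and 18 companion genes lower. Detection at over 3 counts held for 37 members in a library and for 24 in every library of a group. Leaving out each library in turn gave from 6 to 8 members higher and from 3 to 5 lower, the fewest lower without KO replicate 3.

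With library size only and with TMM on genes of at least 10 CPM, the log2 fold change of Ccl25 turned to 0.039 and 0.0097 and that of Il33 to 0.14 and 0.12, because of the same shift. The log2 fold change of Ccl24 turned to -0.035 with DESeq2 and to -0.28 with the replicate block, and the cause was not tested. When libraries were left out, Ccl24 lay between -0.44 and 0.35, Il33 between -0.35 and 0.50, Il18 between -0.0038 and 0.85, and Il13 between -0.64 and 0.061. Without control replicate 1 and KO replicate 4 together, Ccl4 passed the thresholds at -2.70, and without control replicate 2, Ccl17 passed them at 3.45.

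Since the libraries share only numbers, the replicate block was an alternative. It gave 4316 genes higher and 1254 lower, 6 members higher (without Ccl3 and Cxcl3) and 5 lower, and 31 companion genes higher and 6 lower. Few counts limit what can be said of the 40 members under the filter. This holds most for KO replicate 1, the library with the lowest depth.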
